A study of Mus musculus with 2 samples.

Results

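The genes described are 47 genes of DNA replication and the G1/S transition, given as a list of symbols and found through the annotation of the array's probes. Of these 47, 43 had at least 1 probe, out of 16593 genes measured, and 38 were detected on at least 1 array, out of 8217. The members without a probe of that symbol were Cdk4, Gins1, Gins2 and Rfc3, whose expression was not analysed here. The Med1 KO group carried Med1 fl/fl with Cre driven by the Krt14 promoter, so that Med1 was removed from keratin 14-expressing epithelium. The CON group was littermates of the genotype Med1 fl/fl, which carry the floxed allele too. All mice were of the C57/BL6 strain and 3 months old, and 3 mice were used per genotype. Dental epithelial stem cells, the progenitors of the enamel-forming ameloblasts, were dissected from the labial cervical loop of the lower incisor and plated sparsely. After 7 days of primary culture with EGF and FGF their RNA was hybridised to 1 array per genotype. The labels do not say outright whether the RNA of the 3 mice was pooled, which is how the single array is read here.

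Before a cell copies its DNA, the origin recognition complex, Cdc6 and Cdt1 load the Mcm helicase onto origins during G1, a step called licensing. Cyclin D and cyclin E kinases then phosphorylate the retinoblastoma protein, E2F factors are released, and many of the genes listed here are transcribed as E2F targets. In the continuously growing incisor, the cervical loop holds slow-cycling stem cells and their rapidly dividing progeny, so these genes serve as a readout of how many cells are in cycle. In RNA of a whole culture, fewer cycling cells and less RNA per cycling cell cannot be told apart.

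No value has a replicate, and the number of arrays limits the precision. Differences are normalized log2 intensities, KO minus CON, of a gene's brightest probe, and a gene was counted as higher or lower at 2-fold or more when detected on at least 1 array at a detection p-value under 0.01. No test between genotypes was possible. The only spread that could be measured is that between probes of a gene on the same 2 arrays. Where both arrays detected more than 1 probe of a gene, which was so for 1830 genes, the differences of its probes had a standard deviation of 0.31. It leaves out any variation of mice, cultures, RNA or arrays that the probes of a gene share. A difference larger than it is therefore not shown to be a difference between genotypes. Med1 itself had signals of 411.8 on the KO array and 913.5 on the CON array by its brightest probe, a log2 difference of -1.49 (-1.09 without background correction). Its other detected probe differed by -0.28, within that standard deviation, and the position of these probes in the gene was not looked up, so neither probe checks the deletion. The cells of both arrays carried epithelial transcripts, with Krt14 (15.13 in KO, 15.23 in CON), Trp63 (12.68 in KO, 13.06 in CON) and Cdh1 (12.33 in KO, 12.25 in CON) all detected on a log2 scale. Of the 5 detected epithelial markers, Krt5, the keratin partner of Krt14, was the exception in size, with signals of 10164 in KO and 22154 in CON, 2.33-fold lower in KO, while Sox2 differed by 0.22. The arrays were not alike in other respects. All 8 detected of 12 mesenchymal markers were at least 2-fold higher on the KO array, against 8.35% of all detected genes. Of these 8, 6 were detected on the KO array only. With lower bounds for those 6, on background-corrected values, 6 of the 8 stayed past 2-fold. Without background correction the bounds for Dcn, Col3a1 and Twist1 were under 2-fold (1.83, 1.22 and 1.08). Those for Lum, Col1a1 and Thy1 were 3.0-fold, 3.6-fold and 5.9-fold. The brightest probes of the 12 markers, background included, summed to a signal of 9541 in KO and 3369 in CON. Among that list Col1a2, Pdgfra, Pdgfrb and Prrx1 were detected on neither array, and Thy1 (1375 in KO, 187.2 in CON) and Mmp2 (2513 in KO, 402.4 in CON) were among those that differed. Xist was detected on the KO array only (a signal of 3131 in KO, 168.2 in CON), while the Y-linked Eif2s3y was detected on both (888.3 in KO, 2473 in CON). The part of these differences in the values below was not tested.

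Replication and G1/S genes were close to equal on the 2 arrays. Of the 38 detected members, 1 was at least 2-fold higher on the KO array (Pcna) and 0 were at least 2-fold lower, against 8.35% and 6.52% of all detected genes. All 38 were detected on both arrays, and among the 7272 genes so detected the shares were 5.53% and 4.11%. The members' median difference was -0.07, against -0.06 for all 8217 detected genes, with 15 members above 0 and 23 below (44.2% of all detected genes were above 0). The middle of the distribution, between the lower and upper quartiles, ran from -0.26 to 0.12 for the members and from -0.41 to 0.30 for all detected genes. For the genes detected on both arrays, as all 38 members were, it ran from -0.37 to 0.25. The median size of a difference, whichever its sign, was 0.18 for the members and 0.32 for all genes detected on both arrays. At the lower threshold of 1.5-fold, 1 member was higher and 4 were lower, 13.2% of those detected, against 31.0% of all detected genes and 25.0% of those detected on both arrays. The 4 lower members were Mcm7, Dut, Fen1 and Tyms. Without background correction their differences were -0.34, -0.27, -0.56 and -0.54, each short of 1.5-fold, so these 4 calls depend on the correction. No test of the list was made, and with 1 array per genotype these shares describe the 2 arrays only.

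**Figure D1:**
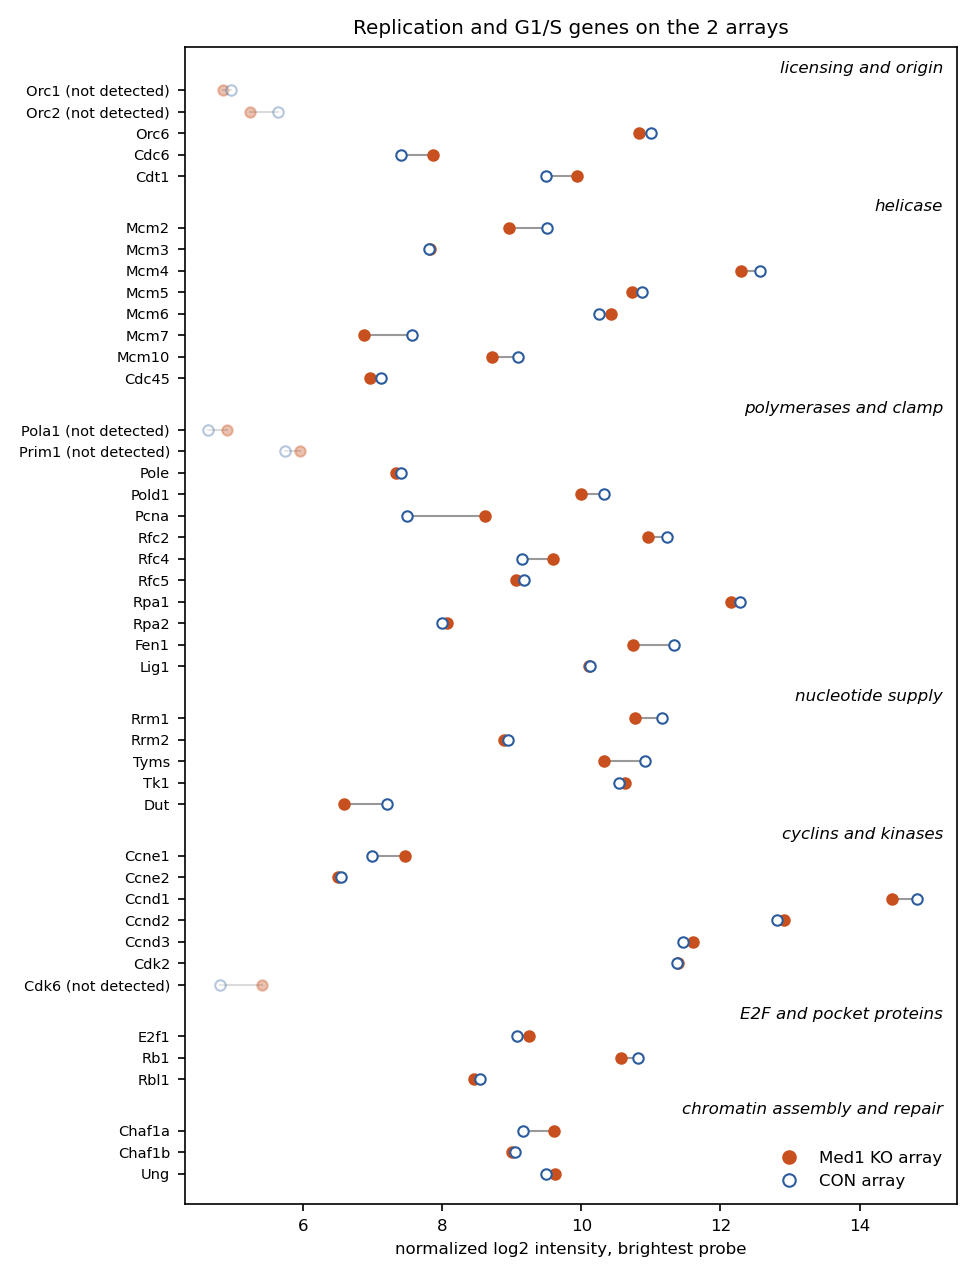
Normalized log2 intensity (x axis) of the brightest probe of each of the 43 measured members (rows, by role), with the Med1 KO array as filled and the CON array as open circles; faded rows are the 5 members detected on neither array. The paired circles lie close together in most rows, and the widest gap is that of Pcna (8.62 in KO, 7.50 in CON).

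**Figure D2:**
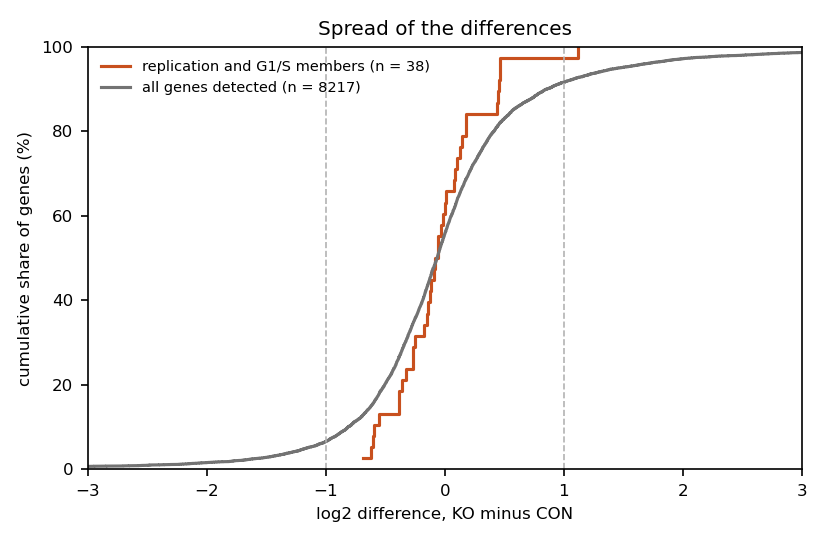
Cumulative share of genes (y axis, %) against the log2 difference, KO minus CON (x axis), for the 38 detected members and all 8217 detected genes, with dashed lines at 2-fold and genes beyond the axis limits not drawn. Both curves cross the middle near 0 (medians -0.07 and -0.06), and the members' curve is the steeper.

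Many replication genes are known E2F targets, so the promoters of the members were read for the E2F site. RefSeq promoters on GRCm38.p6, each 300 bases long with 250 before and 50 after the start of transcription, were found for 38 of the 47 listed genes. The letters TTTCCCGC, TTTCGCGC, TTTGGCGC or TTTGCCGC, on either strand and with overlapping matches counted, were present in the promoter of 13 of these 38 genes (34.2%). Of all 27025 genes in the promoter table, 704 (2.61%) held them. The 250 bases before the start are shown, on the strand of each gene and with matches in capitals, for Mcm6, which has 3 matches and the disagreeing probes described further on, for Cdc6, the licensing gene with the largest positive difference, and for Pcna, which has no match in this window. They lie at chr1:128359706-128359955 (minus strand), chr11:98907901-98908150 (plus strand) and chr2:132253181-132253430 (minus strand).
Mcm6: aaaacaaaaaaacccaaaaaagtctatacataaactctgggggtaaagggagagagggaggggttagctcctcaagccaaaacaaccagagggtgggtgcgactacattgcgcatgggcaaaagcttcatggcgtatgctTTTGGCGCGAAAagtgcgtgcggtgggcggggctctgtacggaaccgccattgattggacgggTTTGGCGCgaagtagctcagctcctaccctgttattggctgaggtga
Cdc6: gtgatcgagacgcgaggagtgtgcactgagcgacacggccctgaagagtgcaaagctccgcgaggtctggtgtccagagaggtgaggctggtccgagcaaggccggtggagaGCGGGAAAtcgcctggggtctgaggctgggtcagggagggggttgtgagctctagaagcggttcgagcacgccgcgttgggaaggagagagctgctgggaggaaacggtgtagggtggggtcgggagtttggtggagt
Pcna: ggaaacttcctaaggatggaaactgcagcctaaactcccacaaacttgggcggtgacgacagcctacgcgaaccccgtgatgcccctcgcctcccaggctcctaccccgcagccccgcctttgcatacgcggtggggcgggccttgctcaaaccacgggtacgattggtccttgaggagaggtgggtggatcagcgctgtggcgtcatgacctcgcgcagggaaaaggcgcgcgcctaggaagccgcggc
In Mcm6 the first capital run holds 2 overlapping matches, 1 on each strand, and in Cdc6 the match is on the opposite strand to the gene. The 10 detected members with a match had a median difference of 0.00, from -0.69 to 0.47. The 21 detected members with a promoter in the table and no match had a median of -0.06, from -0.62 to 1.12, so the ranges overlap.

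Of the licensing genes, 3 of 5 were detected and none reached 2-fold. Cdc6, the loader that brings the helicase to origins, had signals of 385.0 in KO and 331.7 in CON, a log2 difference of 0.47 (0.26 without background correction). Cdt1, its partner in loading, had 1114 in KO and 897.1 in CON, a difference of 0.45. Both read higher on the KO array by more than the between-probe standard deviation and by less than 1.5-fold. Orc6, a subunit of the origin recognition complex, had 1946 in KO and 2253 in CON, a difference of -0.18. Orc1 (168.7 in KO, 173.0 in CON) and the brighter Orc2 probe (190.4 in KO, 205.1 in CON) gave signals that were not detected on either array, so these subunits of the same complex have no measured difference here.

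The replicative helicase had all 8 of its measured members detected, 6 below 0 and 2 above, with a median difference of -0.21. Of all 8217 detected genes, 4577 were below 0, with a median of -0.06. Mcm7, a subunit of the Mcm2-7 ring that unwinds the DNA, had the most negative difference of all members, with signals of 274.3 in KO and 353.5 in CON. That is -0.69 on the log2 scale and -0.34 without background correction, so the size of this difference at a dim probe rests on the correction. Mcm2 had 644.0 in KO and 908.3 in CON, a difference of -0.55. The ring subunits Mcm4 (5267 in KO, 6172 in CON) and Mcm5 (1831 in KO, 2060 in CON) differed by -0.26 and -0.14, both within the between-probe standard deviation. Mcm3 was level, at 377.4 in KO and 390.4 in CON, a normalized difference of 0.01. Mcm10, which helps to activate the loaded helicase, differed by -0.38, and Cdc45, which joins the ring to form the active helicase, by -0.15.

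Mcm6, another ring subunit, had probes that disagree. Its brightest probe had signals of 1515 in KO and 1398 in CON, a log2 difference of 0.18, and the next had 698.7 in KO and 725.2 in CON, a difference of 0.01. Another probe had 981.8 in KO and 166.8 in CON, where it was not detected (detection p-value 0.496), a measured difference of 4.87 and 2.59 without background correction. Taken against the lowest detected value on the CON array, this probe was at least 4.27-fold higher in KO without background correction. The same bound on background-corrected values was 10.8-fold. The remaining probe was detected on neither array, at 183.3 in KO and 181.1 in CON. All 4 probes are annotated to the same RefSeq transcript of Mcm6, and 2 of its 3 detected probes differed by less than the between-probe standard deviation. The sequences of the probes were not used here, and what the discordant probe reads was not tested.

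**Figure D3:**
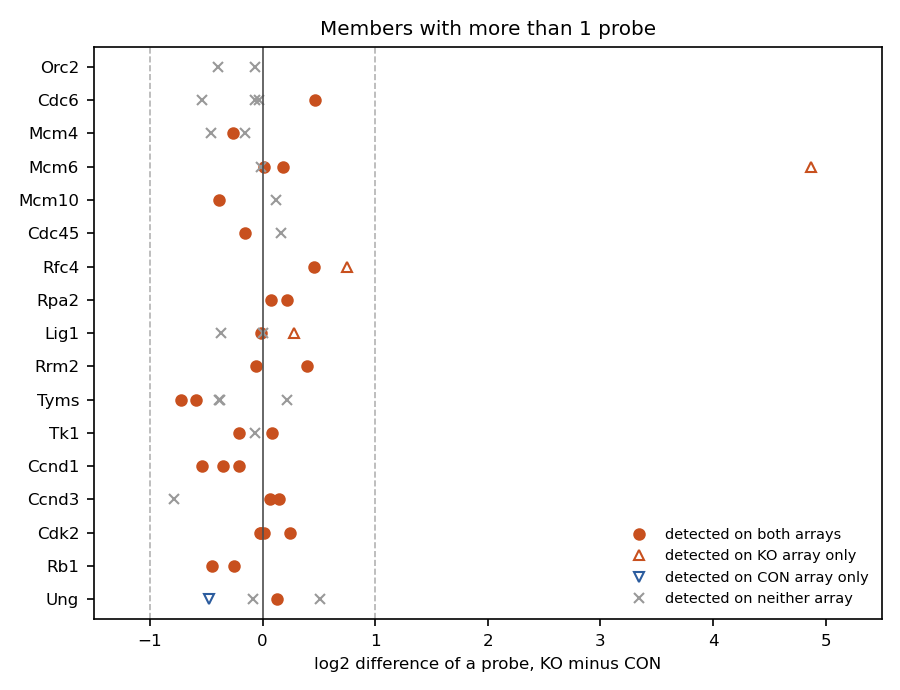
Log2 difference, KO minus CON (x axis), of every probe of the 17 members with more than 1 probe (rows), by the arrays on which the probe was detected, with dashed lines at 2-fold. All probes but 1 lie within 2-fold of equality, and the exception is an Mcm6 probe at 4.87, detected on the KO array only.

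The 43 measured members had 77 probes, of which 50 were detected on both arrays, 3 on the KO array only, 1 on the CON array only and 23 on neither. Among the 12 members with several detected probes, Mcm6 alone spanned at least 1 log2 unit, against 8.22% of all 2128 genes with several detected probes. The next widest was Ung, whose probes spanned 0.61, from -0.48 to 0.13, with opposite signs. The value of -0.48 came from a dim probe detected on the CON array only (218.4 in KO, 241.8 in CON), and was -0.15 without background correction. The between-probe standard deviation over 9 members with at least 2 probes detected on each array was 0.16. Opposite signs also occurred for Cdk2, Lig1, Rrm2 and Tk1, all with spans under 0.5, so that 5 of the 12 had probes of opposite sign, against 28.1% of the 2128 genes. For Lig1 too this rested on a dim probe detected on 1 array only (242.5 in KO, where it was detected, and 227.4 in CON). The median span was 0.29 for these members and 0.29 for all such genes. Both detected Tyms probes were lower in KO, at -0.59 and -0.73, and so were all 3 of Ccnd1, from -0.54 to -0.21.

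The polymerases, clamp and fork proteins held the member past 2-fold. Pcna, the sliding clamp that tethers the polymerases and recruits fork proteins, had signals of 539.4 in KO and 344.5 in CON. That is 2.17-fold higher in KO on the normalized scale (log2 difference 1.12), or 1.63-fold without background correction, from a single probe. Under the deposited normalized values the log2 difference was 0.68, so the 2-fold call depends on the background correction. The clamp is loaded by replication factor C, whose subunit Rfc4 was also higher in KO (910.2 against 739.4, a difference of 0.45), with a second, dim probe at 275.5 in KO and 228.1 in CON, detected in KO only (at least 1.17-fold higher there without background correction). The clamp loader subunits Rfc2 and Rfc5 differed by -0.26 and -0.12, and Rfc1, the large subunit and not a member, by -0.07.

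Fen1, the nuclease that removes the flaps of Okazaki fragments, had signals of 1840 in KO and 2781 in CON, 1.52-fold lower in KO (log2 difference -0.60). This difference was nearly the same without background correction, at -0.56, though that is under 1.5-fold. Lig1, the ligase that seals the fragments after Fen1, was level at 1234 in KO and 1301 in CON, a difference of -0.01. Both single-strand binding subunits were also level, Rpa1 at -0.13 and Rpa2 at 0.08. Of the polymerase catalytic subunits, Pold1 (1153 in KO, 1467 in CON) differed by -0.33 and Pole (315.1 in KO, 332.7 in CON) by -0.08. Pola1 and Prim1, of the primase complex that starts each strand, were detected on neither array.

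Of the genes of nucleotide supply, 4 of 5 were below 0, with a median difference of -0.39 (4577 of all 8217 detected genes were below 0). Dut, which clears dUTP from the nucleotide pool, had signals of 253.3 in KO and 309.3 in CON, a log2 difference of -0.62 that became -0.27 without background correction. Tyms, thymidylate synthase, had 1411 in KO and 2118 in CON, 1.51-fold lower in KO, and its difference of -0.59 was -0.54 without the correction. Rrm1, the large subunit of ribonucleotide reductase, had 1884 in KO and 2489 in CON, a difference of -0.39. The small subunit Rrm2 was at -0.06 by its brighter probe and 0.40 by the other. Tk1, the salvage enzyme for thymidine, had 1722 in KO and 1671 in CON, a difference of 0.08 by its brightest probe and -0.21 by a dimmer one. The 5 enzymes thus did not share 1 direction, and those at or below -0.39 were Dut, Tyms and Rrm1.

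None of the 6 detected cyclins and kinases reached 1.5-fold, and their median difference was 0.06. Cyclin D1, which links growth factor signals to the cell cycle, had Ccnd1 signals of 23455 in KO and 28471 in CON, a difference of -0.36. Ccnd2 (8075 in KO, 7170 in CON) and Ccnd3 (3273 in KO, 3032 in CON) differed by 0.10 and 0.14. The 3 D cyclins thus had small differences of both signs. Cyclin E1, the partner of Cdk2 at S phase entry, read higher, with Ccne1 signals of 329.4 in KO and 287.8 in CON (0.47, or 0.23 without background correction), while Ccne2 was at -0.03. Cdk2 was level by its brightest probe, at 2808 in KO and 2859 in CON (0.01), and its other 3 probes ran from -0.02 to 0.24. Cdk6, a kinase partner of the D cyclins, was detected on neither array (197.7 in KO, 162.7 in CON).

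The E2F and pocket protein genes differed by less than the between-probe standard deviation by their brightest probes. E2f1, an activator of S phase genes, had signals of 751.7 in KO and 711.2 in CON, a difference of 0.18. Rb1, the retinoblastoma protein that restrains E2F, had 1661 in KO and 2000 in CON, a difference of -0.25, with a second probe at -0.45. The related Rbl1, which encodes p107, was at -0.09. Of the genes that follow the fork, Chaf1a, the large subunit of chromatin assembly factor 1, had 912.7 in KO and 747.2 in CON, a difference of 0.44. Its partner Chaf1b (655.3 in KO, 705.6 in CON) was at -0.06. Ung, which removes uracil from DNA, was at 0.13 by its brightest probe, so no shared direction was seen here either.

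Replication and G1/S genes outside the member list were also mostly within 2-fold of equality. Of 68 listed, 61 were measured and 46 detected. Of these 46, 1 was at least 2-fold higher and 1 lower, against 8.35% and 6.52% of all detected genes. Their median difference was -0.11, with 32 below 0 and 14 above (44.2% of all detected genes were above 0). The exception on the high side was Pclaf, the PCNA-associated factor that binds the clamp, with signals of 934.5 in KO and 270.3 in CON. That is 7.20-fold higher in KO (log2 difference 2.85, or 1.83 without background correction), from 1 probe detected on both arrays. Orc3, of the origin recognition complex, had 366.9 in KO and 727.6 in CON, 2.57-fold lower in KO (-1.36, or -0.93 without the correction, where it is under 2-fold). Next in size by brightest probe were Pold4, a small subunit of polymerase delta (0.86), and Dck, a nucleoside kinase detected on the CON array only (237.4 in KO, 302.8 in CON, at least 1.24-fold lower in KO without background correction). Tfdp2 differed by -0.48 by its brightest probe, and its 2 other detected probes by -1.32 and -0.83. At 1.5-fold, 3 of the 46 were higher and 5 lower, against 14.6% and 16.4% of all detected genes.

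Of 20 mitosis genes, 16 were measured and 12 detected, all on both arrays. None differed by 2-fold (0 of 12, against 5.53% higher and 4.11% lower among all genes detected on both arrays). Their median was 0.16 and 9 of 12 were above 0, against 44.2% of all detected genes. The mitotic kinase genes Plk1 (546.5 in KO, 802.7 in CON) and Cdk1 (1909 in KO, 1532 in CON) differed by -0.66 and 0.40, and the checkpoint gene Bub1b by 0.59. Foxm1, a transcription factor of mitotic genes, differed by 0.43 by its brightest probe (0.26 without background correction) and by 0.08 by another. Of 7 detected CDK inhibitors, which block the kinases above, 1 was at least 2-fold higher and 0 lower, against 8.35% and 6.52% of all detected genes. It was Cdkn1c, encoding p57, with signals of 6309 in KO and 385.7 in CON (log2 difference 4.79). Cdkn1a, encoding p21, had 14130 in KO and 8922 in CON, a difference of 0.58, below 2-fold, and Cdkn2d and Cdkn2b differed by -0.60 and -0.38. On the same arrays, all 8 detected of 10 suprabasal and cornified genes were at least 2-fold higher in KO, against 8.35% of all detected genes. Among them Ivl was detected on the KO array only (457.4 in KO, 168.5 in CON, at least 1.975-fold higher there without background correction). Their median was 4.22, and that of the replication and G1/S members was -0.07. The list was chosen with earlier results of these data known, so this contrast is no test.

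**Figure D4:**
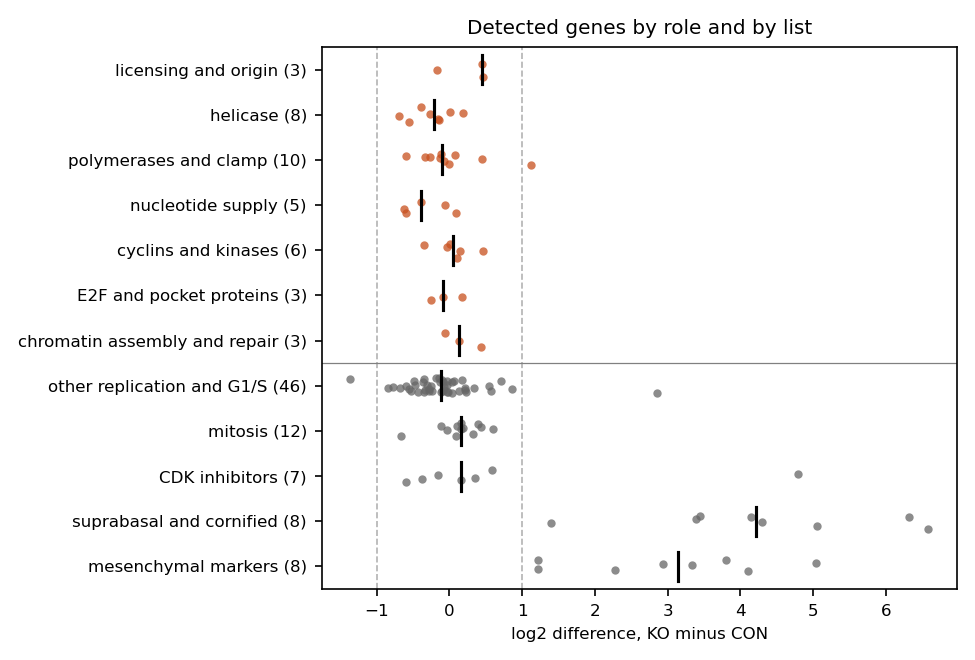
Log2 difference, KO minus CON (x axis), of each detected gene (points, spread vertically for legibility) for the members by role (upper rows) and for other gene lists (lower rows), with the number of detected genes in brackets, black bars at medians and dashed lines at 2-fold. Members by role sit around 0 with Pcna alone beyond a line, Pclaf stands apart in the other replication list and Cdkn1c among the CDK inhibitors, and the suprabasal and mesenchymal lists lie wholly to the right of the upper line. Of those 2 lists, 6 mesenchymal genes and Ivl were detected on the KO array only and are drawn at measured differences. Their lower bounds are not drawn, and on background-corrected values those of Col3a1 (1.66-fold) and Twist1 (1.23-fold) were under 2-fold.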

How the data were processed

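The 2 arrays are Illumina bead arrays, 1 per genotype, labelled with biotin and read with Cy3-streptavidin, per the labels' protocols. The submitters' processing notes name GenomeStudio 2011.1. The deposited non-normalized table holds mean bead signal intensity for 25697 probes on a linear scale, and per the file headers a detection p-value for each. In the deposited value table the intensity values of the same probes have sorted columns that differ by at most 0.279, as after quantile normalization, by a method that the sources used here do not give. Detection reached 42.6% of probes in KO and 43.1% in CON, with median signals of 207.4 and 205.5.

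From the non-normalized signals, background was corrected by normexp with negative control parameters taken from those p-values and offset 16, followed by quantile normalization on the log2 scale (neqc, limma 3.58.1, R 4.3.3). Of the probes, 23978 had 1 gene symbol, 0 had several and 1719 were unnamed here, and 23962 were updated through the mouse gene table. Each gene was represented by its brightest probe. Probes were said to disagree where the differences of detected probes of a gene spanned at least 1 log2 unit. No test between genotypes could be made, and the calls are rules of size. The procedure was tested on simulated data, made from the CON array with known changes. That test checked the code and not how reliable calls near 2-fold are in these data. The members, the other lists and the rule for genes named in full (those past 2-fold, those with disagreeing probes, the extremes of each role, and up to 4 of each other list) were chosen with earlier results of these data known. Other members, listed genes and markers were named after their values were seen. Alternatives covered background correction, scaling, the deposited values, detection, the choice of probe and the threshold.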

Additional observations from a re-analysis of the deposited data

How the results depend on the processing

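The count of 1 member at least 2-fold higher became 0 with no background correction, with normexp on the signal alone, with an offset of 50, with the deposited values and at 3-fold, and 2 with detected probes averaged or with the probe of the largest absolute difference, where the added gene is Mcm6 (1.69 and 4.87). Pcna then differed by 0.70, 0.90, 0.99 and 0.68 under the first 4 of these settings. The count of 0 members at least 2-fold lower stayed 0 under each alternative run except 1.5-fold, where it was 4. The other replication genes past 2-fold numbered 2, and 1 with no background correction, the deposited values or 3-fold. They numbered 8 at 1.5-fold and 3 with the probe of the largest absolute difference, where the added gene is Tfdp2 (-1.32). Without background correction, chosen after seeing the data for the lower bounds, the log2 bound of the discordant Mcm6 probe was 2.09 in place of 3.43. The members whose probes disagree numbered 1, and 0 when probes had to be detected on both arrays and 2 at a span of 0.5. The members' median difference ran from -0.15 (no normalization between arrays) to -0.04 (the deposited values). Of 312 single-gene values under alternatives, 299 moved by less than the between-probe standard deviation, 13 by more and 0 changed sign past 2-fold. The 299 include genes with 1 detected probe under the averaged and largest-difference settings, which cannot move them. Leaving out background correction lowered the number of genes past 2-fold in all detected genes too, to 341 higher and 207 lower, against 686 and 536. No paired analysis was possible because each group has 1 array. Signal over background limits the dim members, and those detected on neither array have no measured difference.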
